A study of Mus musculus with 10 samples.

Results

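The 35 genes described here encode the machinery of macroautophagy and the receptors that bring it cargo. They were chosen by gene name, for their known roles, from the 35275 genes of the count table of a mouse retina series. All 35 were found under a single row each, and all 35 were among the 17435 genes that passed the filter on low counts. Retinas came from C57BL/6 mice aged 10 to 12 weeks. There were 5 libraries from vehicle mice, whose titles call them untreated, and 5 from mice that had received the antiepileptic drug vigabatrin at 140 mg/kg/day over 11 days from an osmotic pump placed under the skin. Vigabatrin irreversibly inhibits GABA transaminase and can cause loss of visual field in patients. Each library is named by its group and title number. Whether each stands for an animal of its own is not in the labels, and p-values then cover only the spread between libraries, which may be technical.

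Macroautophagy encloses cytoplasm in a double membrane, the autophagosome, which fuses with a lysosome. A kinase complex starts the process, a lipid kinase complex marks the membrane, ATG9 and ATG2 proteins supply lipid, and an enzyme cascade attaches proteins of the LC3 and GABARAP family to the growing membrane, where cargo receptors bind them. In the retina, photoreceptors and ganglion cells depend on it to clear damaged organelles, and some of the same enzymes act in the pigment epithelium when it digests shed outer segments. Abundance of these mRNAs does not measure the flux through the pathway.

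Libraries held 36056135 to 54052502 counts, and the 35 genes together took between 0.298% and 0.312% of them. Rod genes (10 of 10 tested, among them rhodopsin) summed to between 59290 and 65700 CPM (deposited counts scaled to a common library total). Lens genes took 1.30% to 2.01% of the counts in 4 libraries (vehicle 835 and 1582, vigabatrin 2344 and 2429) and at most 0.126% in the other 6. The summed level of 12 pigment epithelium and choroid genes ranged from 45.8 to 1708 CPM in vehicle and from 19.4 to 755 CPM in vigabatrin libraries, with the highest value in vehicle 835. These are whole-tissue libraries, so fewer cells of a type and less RNA per cell cannot be told apart. Of the 10 libraries, vehicle 2345 is the only vehicle library whose title number lies in the range of the vigabatrin libraries (2344 to 2429); the other 4 are numbered 832 to 1582. The labels do not say what the numbers stand for.

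Levels were compared between genes as TMM-scaled CPM per kilobase of the deposited gene length (TMM is edgeR's correction of library size). On that scale the 5 LC3 and GABARAP genes and the 4 cargo receptors, with Atg13, were the 10 most abundant members, and 5 conjugation genes (Atg10, Atg16l2, Atg4a, Atg5 and Atg7) followed Atg9b at the low end. Gabarapl1 had the highest level, 136 ± 3.15 CPM per kilobase with vehicle and 132 ± 3.97 with vigabatrin (± SD over 5 libraries each), above 98.4% of all genes tested. The lowest level was that of Atg9b, 0.764 ± 0.0420 CPM per kilobase in vehicle, at the 18.9th percentile. The order depends in part on the length used: with the length of the principal transcript in GENCODE M21, an alternative chosen after seeing the data, Wipi2 measured 75.6 in place of 28.6, Map1lc3b 51.3 in place of 31.4 and Atg4d 6.35 in place of 14.9 CPM per kilobase over the 10 libraries, while Gabarapl1 stayed the highest at 129.7. The deposited span of another annotated gene, introns included, overlapped that of 11 members. Their counts may include or lack reads for that reason, and overlap of exons was not examined. Among them were Atg9b (Nos3), Atg9a (Ankzf1), Atg4b (Thap4), Atg4d (Kri1), Becn1 (Cntd1) and Map1lc3b (Zcchc14). For Atg10, Gabarapl1, Optn, Rb1cc1 and Sqstm1 the other gene had no established name.

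**Figure D1:**
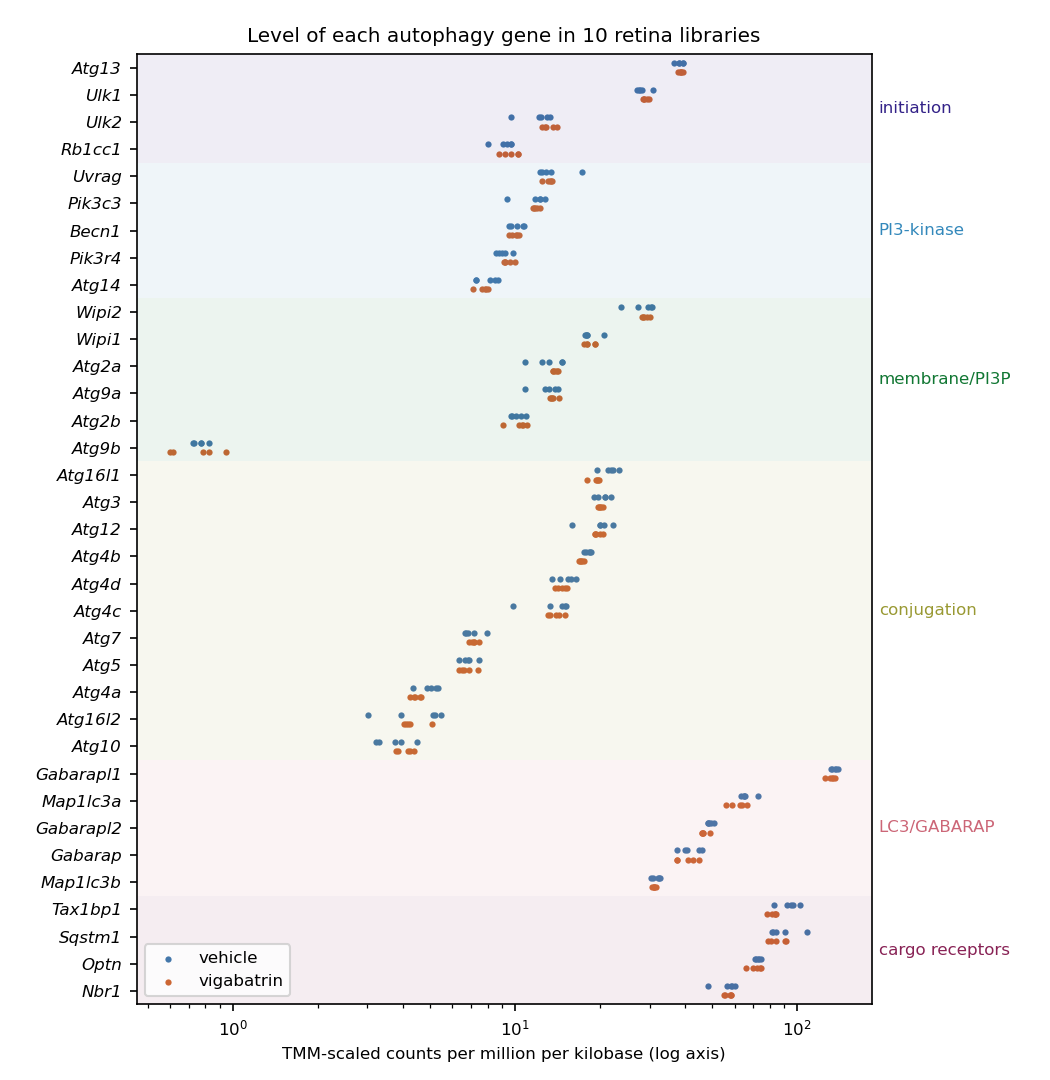
Level of each of the 35 autophagy genes in every library, as TMM-scaled CPM per kilobase of deposited gene length on a log axis, with vehicle libraries in blue and vigabatrin libraries in orange, grouped by role. Gabarapl1 lies highest and Atg9b lowest, and the orange and blue points of every gene share part of their range.

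The comparison asked whether retinal transcripts of the autophagy machinery differed after vigabatrin. None of the 35 genes passed the threshold (edgeR quasi-likelihood test, Benjamini-Hochberg adjusted p under 0.05 over all genes tested, 0 members, against 1 gene or 0.00574% of the 17435 tested). DESeq2's Wald test and limma-voom called 0 members as well, beside 85 genes (0.488%) and 3 genes (0.0172%) among all genes tested. The smallest edgeR adjusted p of a member was 0.494, that of Tax1bp1. Means were lower after vigabatrin for 21 members and higher for 14, beside 50.6% lower among all genes tested. The median log2 fold change of the members was -0.021, and that of all genes tested was -0.0013. At an unadjusted p under 0.05 there were 5 members with lower means, Tax1bp1, Atg16l1, Atg4b, Atg4a and Gabarapl2, and 0 with higher means, where the shares among all genes tested were 3.69% lower and 3.68% higher. In a fit with a term for title range (832 to 1582 against 2344 to 2429), 0 members had an unadjusted p under 0.05, beside 1.97% of all genes.

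For 33 of 35 members, the 95% interval of the log2 fold change lay within a 1.25-fold difference in either direction (0.322 on the log2 scale), as it did for 57.4% of all genes tested. The median half-width of the interval was 0.125. With a term for title range, a count made after seeing the data, the median half-width was 0.22 and 24 members lay within the bound, beside 34.8% of all genes tested. The 11 outside it were then Atg10, Atg14, Atg16l2, Atg2a, Atg4c, Atg4d, Atg9b, Gabarap, Pik3c3, Sqstm1 and Uvrag. Without that term both exceptions were scarce conjugation genes: Atg16l2, a relative of Atg16l1, had an interval of -0.41 to 0.26, and Atg10, which joins ATG12 to ATG5, had -0.10 to 0.35. Each interval stands alone and is not adjusted for the number of genes.

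**Figure D2:**
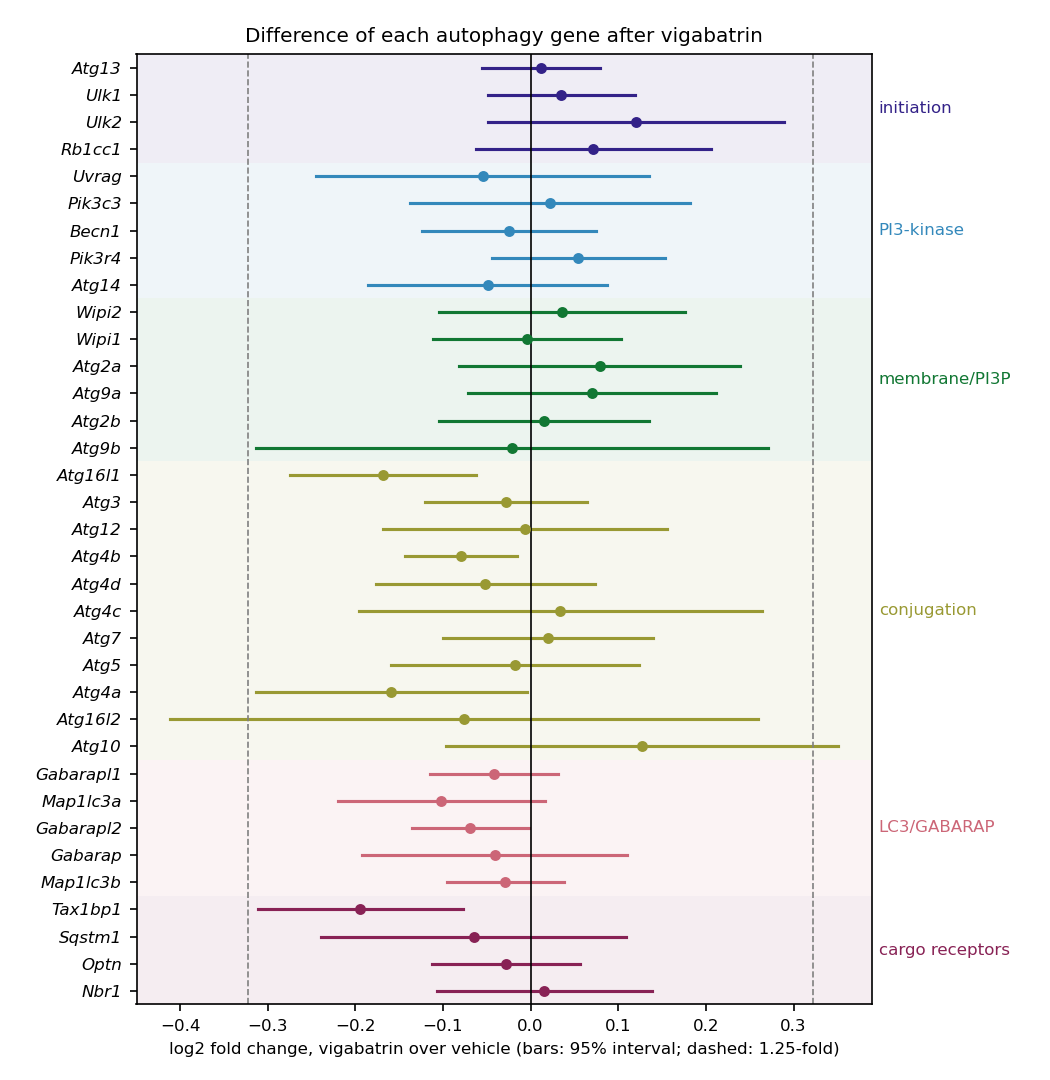
Log2 fold change of each of the 35 autophagy genes, vigabatrin over vehicle, with points for the fitted value, bars for the 95% interval and dashed lines at a 1.25-fold difference, coloured by role. The points of the LC3 and GABARAP family all lie left of 0, those of the initiation genes right of it, and 33 of 35 bars from the fit without a term for title range stay between the dashed lines.

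Initiation of autophagy rests on the ULK kinase complex, which relays nutrient and energy signals. All 4 members had higher means after vigabatrin, with 0 past the threshold and a median log2 fold change of 0.053. With a term for title range, read against vehicle 2345 alone, the log2 fold changes of Atg13, Ulk2 and Rb1cc1 were -0.026, -0.016 and -0.0044. Atg13, the regulatory subunit and the most abundant of them at 38.3 ± 1.14 CPM per kilobase in vehicle, had 142, 132, 137, 137 and 142 CPM in vehicle libraries 832, 835, 1580, 1582 and 2345. Its values in vigabatrin libraries 2344, 2347, 2349, 2428 and 2429 were 142, 136, 139.6, 139 and 139 CPM. The groups overlapped almost throughout (log2 fold change 0.012, SE 0.031). Values below are given in the same order of libraries.

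Ulk2, a protein kinase related to Ulk1, had 74.9, 55.8, 70.1, 70.8 and 76.5 CPM in vehicle. In the vigabatrin libraries it measured 71.7, 73.2, 80.7, 78.4 and 74.2 CPM. Vehicle 835 lay far below the rest and the others overlapped with the vigabatrin libraries. Its log2 fold change of 0.12 (SE 0.077, edgeR adjusted p = 0.787) was 0.050 without vehicle 835. That library was the highest or lowest of the 10 for 53% of all genes tested. Ulk1, the main initiating kinase, measured 148 ± 7.46 CPM with vehicle and 151 ± 2.91 CPM with vigabatrin (± SD over 5 libraries each; log2 fold change 0.035, SE 0.038). Rb1cc1, which encodes the scaffold FIP200, measured 0.072 (SE 0.061) and 0.029 without vehicle 835.

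The class III PI3-kinase complexes make the lipid PI3P that marks the growing membrane. Of their 5 members 2 had higher and 3 lower means, with 0 past the threshold and a median log2 fold change of -0.025. Uvrag, the subunit of the complex that acts on endosomes and at later steps, had 44.4, 59.6, 42.7, 46.1 and 42.1 CPM in vehicle. With vigabatrin the values were 46.1, 45.7, 43.0, 44.9 and 46.4 CPM. Vehicle 835 stood above all other libraries, and the rest fell in a common range. The log2 fold change was -0.055 (SE 0.086) and, without vehicle 835, 0.045.

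Pik3r4, the scaffold and regulatory subunit VPS15, had 45.4, 44.5, 43.4, 42.2 and 48.5 CPM in vehicle and 49.2, 45.5, 47.2, 45.5 and 45.2 CPM with vigabatrin. Its log2 fold change was 0.055 (SE 0.045, edgeR adjusted p = 0.835), and it was 0.010 without the 4 lens-rich libraries and -0.061 with a term for title range. Becn1, the Beclin core subunit, measured 44.4 ± 2.46 CPM with vehicle and 43.6 ± 1.396 CPM with vigabatrin (± SD over 5 libraries each). The interval of its log2 fold change was -0.12 to 0.075. Pik3c3, the catalytic subunit VPS34, measured 0.022 (SE 0.073), and Atg14, which directs the complex to sites of autophagosome formation, measured -0.049 (SE 0.062).

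Membrane supply involves ATG9, a lipid scramblase carried on vesicles, the ATG2 proteins, which transfer lipid, and the WIPI proteins, which bind PI3P. Of these 6 genes 4 had higher and 2 lower means, with 0 past the threshold and a median log2 fold change of 0.026. Wipi2, which recruits the ATG16L1 complex, had 157, 123, 153, 141 and 158 CPM in vehicle. The vigabatrin libraries measured 152, 146, 147, 148 and 156 CPM. The vigabatrin libraries all lay inside the vehicle range, whose low end was vehicle 835. Its log2 fold change was 0.036 (SE 0.064) with all libraries and -0.020 without vehicle 835.

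Atg9a and Atg9b, the widely expressed and the more restricted ATG9 gene, differed in level, at 12.98 ± 1.29 and 0.764 ± 0.0420 CPM per kilobase in vehicle (SD, n = 5 each). Log2 fold changes were 0.070 for Atg9a (SE 0.064) and -0.021 for Atg9b (SE 0.13), and without vehicle 835 that of Atg9a was 0.013. For the lipid transfer genes they were 0.079 for Atg2a (SE 0.073) and 0.015 for Atg2b (SE 0.054), and without vehicle 835 that of Atg2a was 0.017. Wipi1 measured 61.5 ± 4.04 CPM with vehicle and 61.4 ± 2.51 CPM with vigabatrin (± SD over 5 libraries each; log2 fold change -0.0041, SE 0.049). Its highest values were 68.8 CPM in vehicle 835, 64.2 CPM in vigabatrin 2429 and 64.0 CPM in vigabatrin 2344, all lens-rich libraries. The remaining lens-rich library, vehicle 1582, measured 60.2 CPM. The part of lens or pigment epithelium tissue in these values was not tested.

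Conjugation is carried out by the ATG4 proteases, which expose the terminal glycine of LC3 and GABARAP proteins, by ATG7 and ATG3, which activate and transfer them, and by the complex of ATG12, ATG5 and ATG16L1, which sets where they are attached. Of 11 members 8 had lower and 3 higher means, with 0 past the threshold and a median log2 fold change of -0.028. At an unadjusted p under 0.05 in the edgeR test there were 3, all with lower means, beside 3.69% lower and 7.36% either way among all genes tested. Atg16l1 (ENSMUSG00000026289, chromosome 1 from 87755870 to 87792428 of mm10), the most abundant per kilobase of the group, had 87.6, 82.2, 83.4, 80.2 and 73.4 CPM in vehicle. Vigabatrin libraries had 67.3, 73.5, 72.9, 73.7 and 74.5 CPM. Vehicle 832, 835, 1580 and 1582 lay above every vigabatrin library, and vehicle 2345 lay among them. The mean was 81.3 ± 5.20 CPM with vehicle and 72.4 ± 2.89 CPM with vigabatrin (± SD over 5 libraries each; log2 fold change -0.17, SE 0.048, edgeR unadjusted p = 0.00508, adjusted p = 0.501).

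Atg4b, the most active of the ATG4 proteases on LC3, had 76.4, 77.7, 77.4, 75.0 and 73.3 CPM in vehicle. In the vigabatrin libraries it measured 70.8, 72.00, 70.9, 73.5 and 72.4 CPM. Here too the 4 vehicle libraries of low title number lay above all vigabatrin libraries and vehicle 2345 did not. Its log2 fold change was -0.080 (SE 0.029, edgeR unadjusted p = 0.0192, adjusted p = 0.6005), one of the most precise values among the members. Atg4a, a protease that prefers GABARAP proteins, was scarcer, at 11.0 ± 0.852 CPM with vehicle and 9.83 ± 0.379 CPM with vigabatrin (± SD over 5 libraries each; log2 fold change -0.16, SE 0.070, edgeR adjusted p = 0.666). Vehicle 2345 measured 9.61 CPM for Atg4a, inside the vigabatrin range. The other proteases had intervals that included 0, with log2 fold changes of 0.034 for Atg4c (SE 0.10) and -0.052 for Atg4d (SE 0.057).

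Atg10 was the conjugation gene of smallest p with a higher mean. It had 6.07, 7.21, 6.36, 5.32 and 5.16 CPM in vehicle and 6.11, 7.08, 6.18, 6.72 and 6.83 CPM with vigabatrin. The groups overlapped, with the highest value in vehicle 835 and the lowest in vehicle 2345 (log2 fold change 0.13, SE 0.10, edgeR adjusted p = 0.830). The log2 fold change was 0.076 without vehicle 2345 and 0.20 without vehicle 835. With a term for title range, read against vehicle 2345 alone, it was 0.35. The remaining enzymes and partners lay close to 0: Atg3 measured -0.028 (SE 0.042), Atg5 -0.018 (SE 0.064), Atg7 0.020 (SE 0.054) and Atg12 -0.0068 (SE 0.074). Atg16l2 measured -0.076 with the widest error (SE 0.15), and its lowest value, 7.97 CPM, was in vehicle 835. Its log2 fold change was -0.19 without vehicle 835 and -0.0015 without vehicle 1580.

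The LC3 and GABARAP proteins are small ubiquitin-like proteins that coat the membrane and hold cargo receptors. All 5 members had lower means after vigabatrin, by small amounts, with 0 past the threshold and a median log2 fold change of -0.042. Gabarap was the exception under a term for title range, with 0.11. Gabarapl1 had 243, 233, 239.7, 235 and 247 CPM in vehicle. With vigabatrin the values were 234, 241, 236, 230.2 and 222 CPM. Only vigabatrin 2429 and 2428 lay below the vehicle range (log2 fold change -0.042, SE 0.033, interval -0.11 to 0.031). Per kilobase, Gabarapl1 made up 41.8% ± 1.34 of the family's summed level with vehicle and 42.2% ± 0.617 with vigabatrin (± SD over 5 libraries each).

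Gabarapl2, also known as GATE-16, had 83.1, 81.3, 81.5, 84.9 and 81.1 CPM in vehicle. The vigabatrin libraries measured 77.4, 82.6, 77.1, 77.9 and 77.7 CPM. Vigabatrin 2347 lay within the vehicle range and the other 4 lay below it. The log2 fold change was -0.069 (SE 0.030, edgeR unadjusted p = 0.0446, adjusted p = 0.666). Gabarap itself, first known as a protein that binds GABA-A receptors and takes part in their trafficking, had 55.0, 60.9, 54.1, 62.3 and 50.9 CPM in vehicle. Vigabatrin libraries had 60.4, 57.9, 50.7, 50.8 and 55.5 CPM. The groups overlapped, and the interval of the log2 fold change was -0.19 to 0.11. Lens-rich libraries averaged 0.17 higher than lens-poor ones in log2 CPM for this gene, and with lens and pigment epithelium levels as terms its log2 fold change was 0.0084.

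Map1lc3a and Map1lc3b encode LC3A and LC3B, the latter the usual marker protein of autophagosomes. Map1lc3a had 70.1, 80.5, 72.4, 72.1 and 72.3 CPM in vehicle and 70.6, 74.1, 69.9, 65.3 and 62.4 CPM with vigabatrin. Vehicle 835 was the highest library and vigabatrin 2429 the lowest (log2 fold change -0.10, SE 0.054, edgeR adjusted p = 0.724). Map1lc3b had 128, 134, 133, 126 and 135 CPM in vehicle and 131, 128, 128, 129 and 127 CPM with vigabatrin. Both groups of Map1lc3b sat within a few CPM of each other, and the interval of its log2 fold change was -0.10 to 0.039.

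Cargo receptors tie ubiquitin-marked cargo to LC3 and GABARAP proteins. Of the 4, Tax1bp1, Sqstm1 and Optn had lower means and Nbr1 a higher mean, with 0 past the threshold and a median log2 fold change of -0.047. Tax1bp1 (ENSMUSG00000004535, chromosome 6 from 52713729 to 52766780 of mm10), a receptor for protein aggregates and bacteria that also restrains NF-kappaB signalling, had the smallest p of all 35 genes. Its values were 313, 337, 303, 318 and 272 CPM in vehicle. After vigabatrin they were 256, 276, 275, 275 and 267 CPM. Vehicle 832, 835, 1580 and 1582 lay above every vigabatrin library, and vehicle 2345 lay inside the vigabatrin range. The mean was 309 ± 23.9 CPM with vehicle and 269.7 ± 8.32 CPM with vigabatrin (± SD over 5 libraries each; log2 fold change -0.19, SE 0.053, edgeR unadjusted p = 0.00370, adjusted p = 0.494).

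Sqstm1, which encodes p62, had 225, 289, 220.0, 241 and 217 CPM in vehicle. In the vigabatrin libraries it measured 245, 242, 226, 211 and 217 CPM. Vehicle 835 was the highest library, and without it the log2 fold change went from -0.065 (SE 0.079) to 0.013. Nbr1, a receptor related to p62, had 280.4, 231, 279.6, 271 and 288 CPM in vehicle and 279, 264, 276, 278 and 267 CPM with vigabatrin. For Nbr1 vehicle 835 was the lowest library, and the log2 fold change of 0.016 (SE 0.056) was -0.036 without it. Optn encodes optineurin, which is linked to inherited glaucoma and takes part in removal of mitochondria. It had 192, 194, 187, 186 and 190.3 CPM in vehicle and 195, 193, 183, 188 and 172 CPM with vigabatrin. The groups overlapped, with an interval of -0.11 to 0.056 for the log2 fold change.

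Vehicle and vigabatrin libraries overlapped for all 35 members (0 without overlap, beside 1.48% of all genes tested, 0.849% with higher and 0.631% with lower vigabatrin values). Without vehicle 2345, a count made after the values were seen, 4 members no longer overlapped: Tax1bp1, Atg16l1, Atg4b and Atg4a, each higher in vehicle. Among all genes tested, 2.59% had these 4 vehicle libraries above all 5 vigabatrin libraries and 2.28% had them below. Leaving out vehicle 2345 gave log2 fold changes of -0.24 for Tax1bp1 and -0.20 for Atg16l1 (edgeR adjusted p = 0.0571 and 0.106). With the term for title range, in which the treatment is read from vehicle 2345 against the vigabatrin libraries, they were -0.013 and -0.020, and for Atg4b and Atg4a -0.029 and 0.033. Whatever the title numbers stand for and the treatment cannot be told apart beyond that 1 library. Without the 4 lens-rich libraries Tax1bp1 measured -0.11 and Atg16l1 -0.15. With lens and pigment epithelium levels as terms they measured -0.18 and -0.17.

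**Figure D3:**
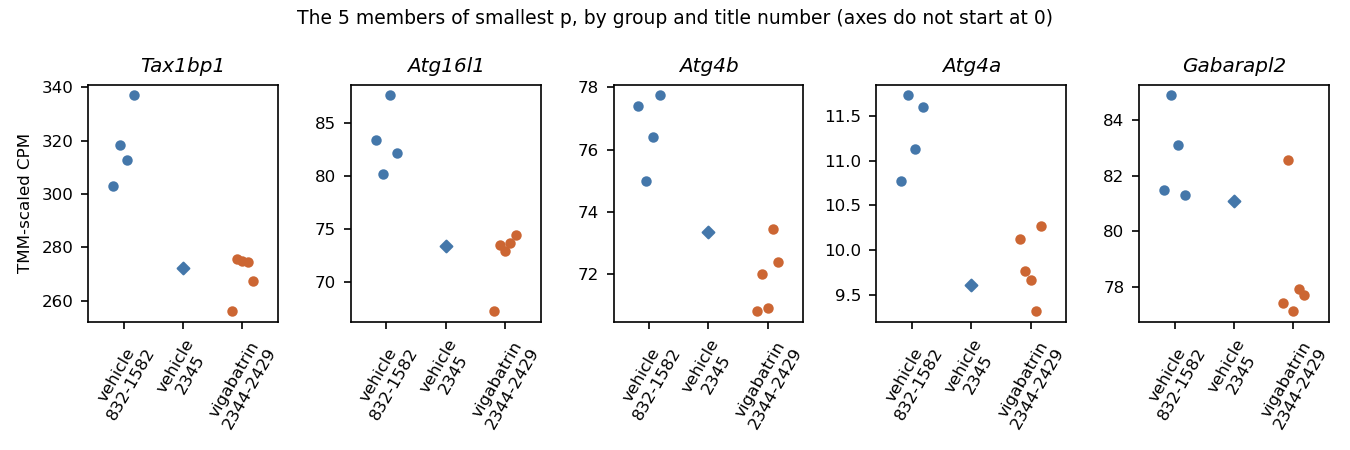
TMM-scaled CPM of the 5 members of smallest p in each library, with the 4 vehicle libraries numbered 832 to 1582, vehicle 2345 (diamond) and the 5 vigabatrin libraries apart, on axes that do not start at 0. For Tax1bp1, Atg16l1 and Atg4a the diamond lies inside the vigabatrin range and the other vehicle libraries lie above it, and for Atg4b it lies just under the highest vigabatrin library.

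Promoter sequence was available for 29 of the 35 members, as 33 windows from 250 bases before to 50 bases after an annotated start (RefSeq, GRCm38.p6). Missing were Atg12, Atg16l1, Becn1, Map1lc3a, Pik3c3 and Rb1cc1. Windows were searched on both strands for CACGTG, the core of the element bound by the lysosomal and autophagy regulator TFEB, and for its longer form TCACGTGA, which overlaps it. They were also searched for TGACNNNGC, the core of the antioxidant response element, and for CCGGAAG, a site of ETS factors. CACGTG was found in 4 windows of members (Atg3, Atg5, Atg7 and Atg14) and in 7.15% of all 32851 windows. TCACGTGA was found in 1, that of Atg3, and in 0.97% of all. TGACNNNGC was found in 4 (Atg13, Map1lc3b, Tax1bp1 and Ulk2) and in 12.39% of all. CCGGAAG was found in 2 (Atg3 and Gabarapl2) and in 8.86% of all. Of the genes with CACGTG, Atg3 had a log2 fold change of -0.028, Atg5 of -0.018, Atg7 of 0.020 and Atg14 of -0.049. The Atg7 window, from base 114670846 of chromosome 6, lies inside the deposited span of the gene, which begins at 114643097. A match is a description of letters and not a bound site. The 250 bases before the start are printed for Tax1bp1, the member of smallest p, which has a pair of annotated starts, for Gabarapl2, the member of the LC3 and GABARAP family of smallest p, and for Atg3, whose window held both forms of the TFEB element. Each runs 5′ to 3′ towards the start on its gene's strand, and capitals mark the matches to these motifs.
Tax1bp1 (chr6:52713479-52713728, plus strand): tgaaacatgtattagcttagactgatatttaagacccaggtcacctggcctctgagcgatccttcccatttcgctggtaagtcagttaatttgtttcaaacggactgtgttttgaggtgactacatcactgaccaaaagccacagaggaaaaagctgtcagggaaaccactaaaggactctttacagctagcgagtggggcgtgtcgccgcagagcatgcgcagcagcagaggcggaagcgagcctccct
Tax1bp1 (chr6:52713915-52714164, plus strand): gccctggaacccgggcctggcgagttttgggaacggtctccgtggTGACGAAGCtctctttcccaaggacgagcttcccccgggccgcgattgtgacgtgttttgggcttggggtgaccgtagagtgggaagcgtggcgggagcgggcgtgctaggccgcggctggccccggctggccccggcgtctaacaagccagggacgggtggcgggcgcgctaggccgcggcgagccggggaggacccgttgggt
Gabarapl2 (chr8:111940453-111940702, plus strand): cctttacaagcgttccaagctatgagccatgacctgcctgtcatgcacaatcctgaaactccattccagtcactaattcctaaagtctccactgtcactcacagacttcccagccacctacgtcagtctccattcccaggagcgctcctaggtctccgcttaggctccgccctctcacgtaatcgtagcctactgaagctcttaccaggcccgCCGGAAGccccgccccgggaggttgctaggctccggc
Atg3 (chr16:45158579-45158828, plus strand): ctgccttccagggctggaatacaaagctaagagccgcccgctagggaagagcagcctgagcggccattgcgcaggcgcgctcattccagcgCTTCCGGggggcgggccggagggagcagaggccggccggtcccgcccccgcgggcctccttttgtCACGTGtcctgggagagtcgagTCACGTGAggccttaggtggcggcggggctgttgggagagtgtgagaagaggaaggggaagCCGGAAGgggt
The first Tax1bp1 start had 0 matches in these bases and the other start 1, to TGACNNNGC. Atg3 had CACGTG 94 and 71 bases before its start, the nearer of them inside TCACGTGA.

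Among themselves the members varied little within groups. The median SD of their log2 CPM within groups was 0.09, beside 0.129 for all genes tested, which include many at lower levels. Vehicle 835 was the extreme library for 23 members, more than any other library, beside 53% of all genes tested. It was the highest of the 10 libraries for 9 members and the lowest for 14, and among all genes tested it was the highest for 25.5% and the lowest for 27.5%. The 9 were Tax1bp1, Sqstm1, Atg10, Atg3, Atg4b, Map1lc3a, Atg7, Uvrag and Wipi1. The 14 were Ulk1, Ulk2, Atg13, Rb1cc1, Pik3c3, Becn1, Atg9a, Atg2a, Wipi2, Atg4c, Atg4d, Atg12, Atg16l2 and Nbr1. All 4 initiation genes were thus lowest in this library, whereas of the cargo receptors 2 were highest and 1 lowest. Atg4c, for example, measured 31.4 CPM in vehicle 835 and between 42.3 and 48.4 CPM in the other vehicle libraries. Vehicle 835 held 1.94% lens counts and 1708 CPM of pigment epithelium and choroid genes, and their part in these deviations was not tested. Vehicle 2345 was extreme for 9 members, beside 17.6% of all genes: it was highest for 6 and lowest for 3, and over all genes highest for 9.11% and lowest for 8.52%.

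**Figure D4:**
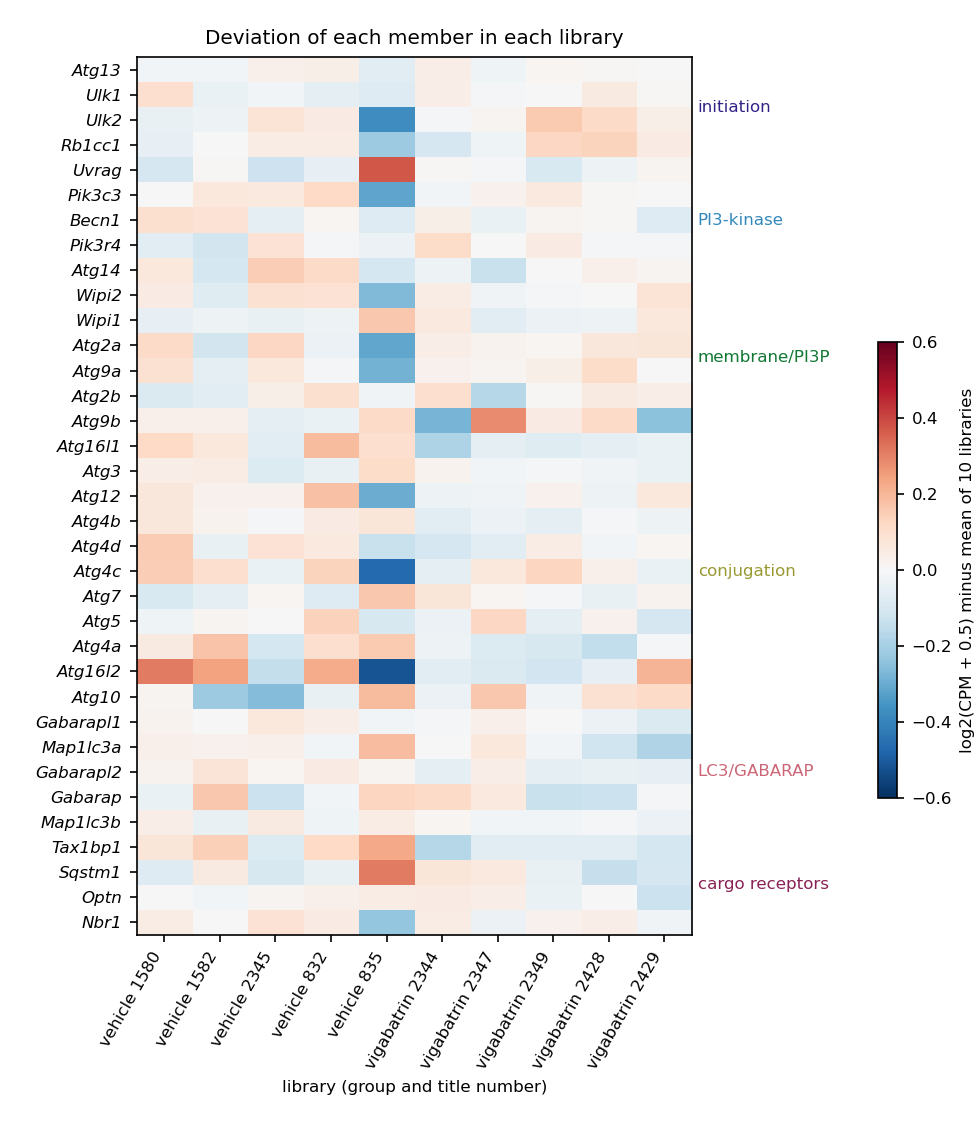
Deviation of each of the 35 members in each library, as log2(CPM + 0.5) minus its mean over the 10 libraries, with blue for lower and red for higher, grouped by role. The column of vehicle 835 holds the deepest colours, with 14 members at their lowest and 9 at their highest of all libraries.

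Further genes of the pathway, taken from a list of known functions, did not pass the threshold either. Of 65 tested, 0 passed, 26 had higher and 39 lower means, the median log2 fold change was -0.02, and 0 had an unadjusted p under 0.05 in the edgeR test, where 7.36% of all genes did. Upstream and accessory genes (16 tested) had 6 higher and 10 lower means, with Trp53inp2, an LC3-binding cofactor, at -0.075 (SE 0.036) and Atg101, a partner of ATG13, at 0.12 (SE 0.12). Genes of fusion with the lysosome (11 tested) had 7 higher and 4 lower means. Their SNARE genes Stx17, Snap29 and Vamp8, whose products act together in that fusion, measured 0.10 (SE 0.047), 0.14 (SE 0.081) and -0.18 (SE 0.086). Ykt6, another SNARE gene of the list, measured -0.081 (SE 0.064). Organelle receptors (13 tested) had 7 higher and 6 lower means, with Bnip3l, a receptor for mitochondria, at 0.053 (SE 0.062) and Fam134b, a receptor for the endoplasmic reticulum, at -0.22 (SE 0.14). Lysosomal genes and their transcription factors (25 tested) had 6 higher and 19 lower means and a median of -0.056. Of the 12 pigment epithelium and choroid markers, 11 had lower means, with a median log2 fold change of -1.04 and the summed levels given above. Ctsl and Mitf, named after their values were seen, averaged 1.19 and 0.55 higher in log2 CPM in the lens-rich libraries. Those libraries come from both groups. The part of lens or pigment epithelium tissue in the lysosomal values was not tested. Among the lysosomal genes Tpp1, a lysosomal peptidase, measured -0.065 (SE 0.032), Hexa -0.13 (SE 0.083) and Mcoln1, the lysosomal calcium channel, 0.024 (SE 0.037).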

How the data were processed

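The authors deposited raw read counts per Ensembl gene for 10 retina libraries, and the submitters' processing notes name HTSeq 0.6.1, DESeq2, edgeR 3.16.5 and mm10. The sources used here give no aligner, annotation release or strand setting. Reads from overlapping genes therefore cannot be told apart, and 11 members overlap another gene. A further 1 column of counts belonged to no listed sample and was left out. Gene length, an other value per gene in bases, was deposited by the authors without a definition.

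Genes with low counts were removed by filterByExpr, which left 17435. TMM factors were then computed, and the quasi-likelihood test of edgeR 4.0.16 (R 4.3.3, limma 3.58.1) was run with a term for group alone. P-values were adjusted by Benjamini-Hochberg over these genes. Totals of 36056135 to 54052502 counts gave a median standard error of 0.088. Standard errors were derived from the F statistic, and 95% intervals use the fit's degrees of freedom. The test was checked on simulated data, where it missed most differences of 1.25-fold and part of the larger ones. Lens-rich means over 0.5% lens counts. Values per library were given for the 3 members of smallest p per direction, any member without overlap, the most abundant per role, the LC3 and GABARAP family and the cargo receptors, and up to 3 further genes per list and direction could be named; the values given for Atg4a in single libraries were added after they were seen. The members, lists and alternatives were chosen with earlier results of these data known. Alternatives covered scaling, filter, tool (DESeq2 1.42.0, limma-voom), libraries and terms.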

Additional observations from a re-analysis of the deposited data

Results flagged for a closer look

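Of 70 groups of 5 libraries examined, 35 members in each treatment, 7 held a single library far from the remaining 4. About 3.5 such groups arise by chance (1 in 20). Vehicle 835 was high for Uvrag (59.6 CPM, others 42.1 to 46.1), for Wipi1 (68.8 CPM, others 59.3 to 60.2) and for Map1lc3a (80.5 CPM, others 70.1 to 72.4). Vigabatrin 2344 was low for Atg16l1 (67.3 CPM, others 72.9 to 74.5), and without it the log2 fold change of Atg16l1 was -0.14. Vigabatrin 2347 was high for Gabarapl2 (82.6 CPM, others 77.1 to 77.9), and without it the log2 fold change of Gabarapl2 was -0.088. Vigabatrin 2428 was high for Atg9a (60.4 CPM, others 56.1 to 57.3) and vigabatrin 2429 for Atg16l2 (13.5 CPM, others 10.7 to 11.2).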

How the results depend on the processing

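Under all 18 alternatives 0 members passed the threshold, with 13 to 16 members higher when 1 library was left out and a median log2 fold change between -0.028 and -0.01. Over all genes, 1 gene passed in the reported fit, 0 to 39 when 1 library was left out (39 without vehicle 2345), 85 with DESeq2's Wald test, 3 with limma-voom, and 0 with library size scaling, with no low-count filter, without the lens-rich libraries, with lens and pigment epithelium terms and with a term for title range. The number of members without overlap was 4 without vehicle 2345. Tax1bp1 had an adjusted p of 0.0574 with DESeq2's Wald test and 0.0571 with edgeR without vehicle 2345. Its log2 fold change with a term for title range is given above and rests on vehicle 2345 alone. No paired analysis was made because the labels name no pairing. Of 630 member values under the alternatives, 561 kept their sign and 69, in 23 members, did not; the cause was not tested. These log2 fold changes were, with library size scaling, Atg12 0.0019 and Wipi1 0.0053, and with limma-voom, Nbr1 -0.024, Atg13 -0.0038, Atg4c -0.046, Wipi2 -0.013, Pik3c3 -0.036, Uvrag 0.021 and Wipi1 0.026. Those that turned when 1 library was left out ranged, over the 10 such fits, as Atg7 -0.0016 to 0.067, Atg12 -0.075 to 0.035, Atg2b -0.0087 to 0.058, Atg5 -0.054 to 0.014, Sqstm1 -0.10 to 0.013, Nbr1 -0.036 to 0.038, Atg13 -0.0033 to 0.020, Atg4c -0.063 to 0.076, Wipi2 -0.020 to 0.063, Pik3c3 -0.047 to 0.052, Uvrag -0.093 to 0.045, Atg9b -0.11 to 0.050 and Wipi1 -0.023 to 0.039. Without the lens-rich libraries they were Sqstm1 0.034, Nbr1 -0.051, Atg3 0.013, Atg2a -0.035, Atg13 -0.021, Atg4c -0.0089, Wipi2 -0.085, Pik3c3 -0.031, Uvrag 0.048, Atg9b 0.20 and Atg2b -0.052, with lens and pigment epithelium terms Nbr1 -0.0062, Gabarap 0.0084, Atg4c -0.0020, Uvrag 0.0019 and Wipi1 0.016, and with a term for title range Ulk2 -0.016, Sqstm1 0.070, Nbr1 -0.077, Gabarap 0.11, Atg3 0.071, Atg2a -0.080, Rb1cc1 -0.0044, Atg13 -0.026, Wipi2 -0.072, Pik3r4 -0.061, Atg9a -0.028, Pik3c3 -0.045, Becn1 0.046, Uvrag 0.10, Atg9b 0.061, Atg2b -0.027, Wipi1 0.046, Atg16l2 0.13 and Atg4a 0.033. The number of members with an interval within 1.25-fold, 33 as reported, was 29 to 33 when 1 library was left out and 24 with a term for title range. With the principal transcript length, levels per kilobase of 12 members moved by more than 1 SD.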
